A study of Mus musculus with 6 samples.

Results

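The region studied was a domain of 240 kb on mouse chromosome 11, from 53880000 to 54120000 in the build mm9, which holds the genes P4ha2, Csf2 and Il3. All peaks of the ATAC-seq table that overlapped it were taken, which gave 11 of 43020 peaks. In ATAC-seq the transposase Tn5 inserts sequencing adapters wherever DNA is not packed away, and reads pile up over accessible DNA. The domain was chosen by the group difference measured in these same libraries: 6 consecutive peaks in it, from 54014726 to 54038586, were called more accessible in organoid lines from tumours than in naive organoids. These 6 peaks are called the run below, and the other 5 lie outside it. The difference between the groups in the run is therefore what chose the region, and its values are given as a description, with no test.

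There were 3 libraries of primary tumour lines and 3 of naive organoids, and every library came from colon cancer organoids of the mouse with the genotype AKP. The labels do not spell out the alleles behind this name. For the primary tumour lines, immunocompetent C57Bl6 mice received naive organoids into the colon during colonoscopy. New organoids were then set up from the tumours. Per the labels' protocols, repeated passages left cancer cells alone, which was not checked here. The naive organoids had no recipient mouse. Effects of the mouse, of tumour outgrowth and of the added passages cannot be told apart, and the labels do not say whether the 3 naive libraries came from separate cultures, so their spread may be technical. The read total over all peaks was 1916819 to 3594735 in primary tumour lines and 1185356 to 5987545 in naive organoids.

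Csf2 encodes GM-CSF and Il3 encodes interleukin-3, secreted cytokines that act on myeloid cells and on blood cell progenitors through receptors with a shared signalling subunit. Activated T cells are their best known source, and epithelial and tumour cells can also make GM-CSF. P4ha2 encodes a catalytic subunit of the enzyme that hydroxylates prolines in newly made collagen in the endoplasmic reticulum. Accessible peaks can mark promoters or other regulatory elements, some of which act on genes at a distance.

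The gene order along the chromosome in RefSeq (GRCm38.p6) is Pdlim4, P4ha2, Csf2, Il3. P4ha2 lies on the plus strand, and Csf2 and Il3 both lie on the minus strand. The run ended 22.2 kb below the lower end of Csf2, which spans about 54060800 to 54063200 in mm9. With the gene on the minus strand, the lower end is its 3′ end. The run thus precedes Csf2 in coordinates but lies downstream of it in the direction of transcription. Il3 lies on the far side of Csf2 from the run. In GRCm38.p6, 5 RefSeq genes without a protein product start between P4ha2 and Csf2. They are the long non-coding RNA genes Gm12223 and 4933405E24Rik and the pseudogenes Gm18323, Gm12221 and Gm12222. In that build 4 of them also end between P4ha2 and Csf2, while Gm12223 reaches the lower end of Csf2 or beyond. Which of them, if any, overlaps the run in mm9 was not determined here.

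The bases before the start of the 3 named genes are shown because their base composition differed. Each line gives 250 bases before the RefSeq gene start, on the strand of the gene, with CpG dinucleotides in capitals. In GRCm38.p6 they lie at chr11:54100674-54100923 on the plus strand for P4ha2, at chr11:54249900-54250149 on the minus strand for Csf2 and at chr11:54267280-54267529 on the minus strand for Il3. These coordinates are not directly comparable with those of the peaks, which are in mm9, and they were not converted. Whether a peak of the domain covers the start of P4ha2 was thus not determined.
P4ha2: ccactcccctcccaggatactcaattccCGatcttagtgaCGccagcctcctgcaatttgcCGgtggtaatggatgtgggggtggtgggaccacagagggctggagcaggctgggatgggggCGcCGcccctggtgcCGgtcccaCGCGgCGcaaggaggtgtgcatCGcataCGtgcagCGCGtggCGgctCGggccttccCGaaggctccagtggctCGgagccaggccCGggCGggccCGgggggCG
Csf2: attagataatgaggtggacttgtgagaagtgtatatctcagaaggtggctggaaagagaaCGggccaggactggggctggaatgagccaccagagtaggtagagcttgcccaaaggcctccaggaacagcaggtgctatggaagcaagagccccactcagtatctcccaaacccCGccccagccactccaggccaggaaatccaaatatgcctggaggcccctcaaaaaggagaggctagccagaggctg
Il3: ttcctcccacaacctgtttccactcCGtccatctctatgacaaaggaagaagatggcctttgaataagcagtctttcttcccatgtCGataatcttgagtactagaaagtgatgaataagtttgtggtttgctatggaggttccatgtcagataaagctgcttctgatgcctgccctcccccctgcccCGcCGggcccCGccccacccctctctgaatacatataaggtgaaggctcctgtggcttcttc

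The P4ha2 sequence held 21 CpG dinucleotides and 70.0% G and C, against a median of 6.0 and 52.4% over 32851 RefSeq promoter windows of the same length. The Csf2 sequence held 2 CpG dinucleotides and 55.2% G and C, and that of Il3 held 5 and 50.0%. P4ha2 therefore had a CpG-rich promoter window, at the 85.2nd percentile of the CpG count, while Csf2 stood at the 29.0th and Il3 at the 49.6th percentile. Both strands were searched for TGANTCA (AP-1), GGAAA (NFAT) and ACAAT (SOX), which were counted independently of one another. The letters GGAAA matched at 2 places before Csf2 and at 1 before Il3, and 55.6% of all windows hold them. The other motifs had 0 matches before any of the 3 genes. They are present in 6.75% (TGANTCA) and 27.7% (ACAAT) of all windows.

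Within the run, all 6 peaks were more accessible in the primary tumour lines, and at each of them the lowest tumour line lay above the highest naive library. Values are CPM, that is reads scaled to a common library size by the library's total over tested peaks and its TMM factor. Summed over the run, they were 206, 232 and 203 CPM in primary tumour replicates 1, 2 and 3, against 53.2, 26.3 and 41.0 CPM in naive replicates 1, 2 and 3. The mean was 213 CPM (SD 15.9, n = 3) over the tumour lines and 40.2 CPM (SD 13.5, n = 3) over the naive libraries, a ratio of 5.32. The lowest tumour line was 3.82 times the highest naive library.

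The 4 peaks with the largest fold changes in the run were run peaks 2, 3, 4 and 6, counted from the lower end. At run peak 2, from 54020046 to 54020915, accessibility was 39.6, 48.7 and 56.0 CPM in primary tumour lines, against 9.44, 7.53 and 8.97 CPM in naive organoids. The naive libraries were close together there, and the tumour lines were all at least 4.20 times as high as any of them. The log2 fold change, primary tumour minus naive, was 2.50 (SE 0.31, edgeR).

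At run peak 3, from 54021960 to 54023278, the tumour lines had 37.9, 26.5 and 37.0 CPM and the naive libraries 7.72, 2.39 and 5.98 CPM. The log2 fold change was 2.84 (SE 0.42). Run peak 4, from 54027983 to 54028670, had 31.1, 37.6 and 17.5 CPM in primary tumour lines, against 4.29, 3.31 and 5.98 CPM in naive organoids. Its log2 fold change was 2.70 (SE 0.43), and the tumour lines differed most here, with primary tumour replicate 3 well below the other lines.

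Run peak 6, from 54037623 to 54038586, was the peak of the run nearest to Csf2 and had the largest fold change of the 6. It showed 46.5, 49.7 and 37.0 CPM in primary tumour lines, against 9.44, 3.12 and 6.41 CPM in naive organoids. The log2 fold change was 3.003 (SE 0.37). This peak also had the highest authors' score of the run, 119, at the 89.4th percentile of all peaks.

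The other 2 peaks of the run differed less. Run peak 5, from 54029561 to 54031459, was the widest of the run and had 30.8, 53.4 and 38.9 CPM in primary tumour lines, against 12.9, 6.80 and 9.82 CPM in naive organoids. Its log2 fold change was 2.14 (SE 0.34). Run peak 1, from 54014726 to 54015760, had 19.7, 15.9 and 16.6 CPM in primary tumour lines, against 9.44, 3.12 and 3.84 CPM in naive organoids. Its log2 fold change was 1.85 (SE 0.48), and naive replicate 1 came closest there to the tumour lines. It was the peak of the run whose call in the fit made here rested most on single libraries. Its log2 fold change was 1.49 without naive replicate 2 and 1.68 without naive replicate 3. In both fits it was no longer called at an adjusted p under 0.05 in edgeR's quasi-likelihood test.

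**Figure D1:**
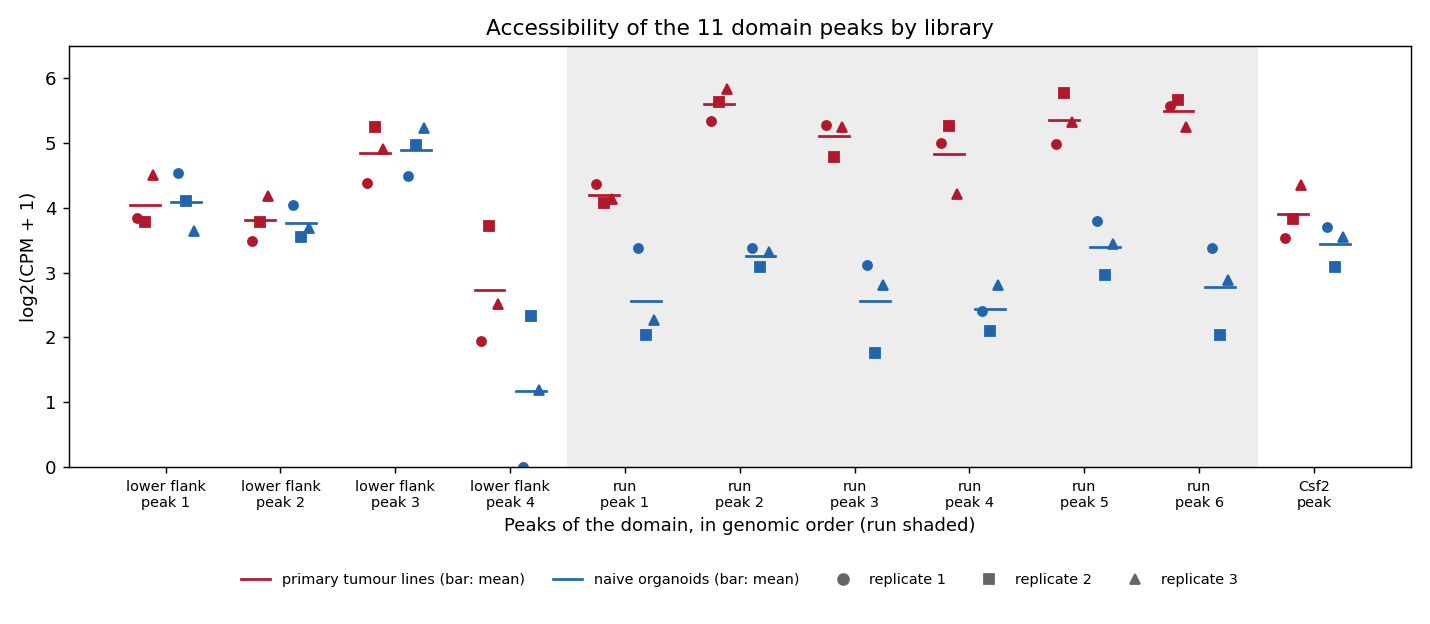
Accessibility, as log2(CPM + 1), of the 11 peaks of the domain in genomic order, with primary tumour lines left of naive organoids, a symbol for each library and a bar for the mean of 3. In the 6 shaded run peaks the tumour lines lie above all naive libraries, while the groups overlap at the 5 other peaks.

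A peak was called when its adjusted p was under 0.05 in edgeR's quasi-likelihood test over 36179 tested peaks. Of the 11 domain peaks, 10 passed the filter on low counts. Called higher were the 6 peaks of the run, and 0 were called lower, where 8.0% of all tested peaks were called higher and 6.40% lower. Without naive replicate 2, the deepest library, these background shares were 3.59% and 2.23%. Groups did not overlap at the 6 run peaks and overlapped at the 5 others, where all 3 tumour lines lay above all 3 naive libraries at 15.5% of all tested peaks. As the run was chosen for calls of this contrast in these libraries, the counts describe it and are no test. The median log2 fold change was 2.60 in the run and 0.03 at the 4 tested peaks outside it, against -0.01 over all tested peaks. Ranked by signed log2 fold change from the largest increase down, the run peaks stood between 153 and 1169 among the 36179.

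Outside the run no peak of the domain was called. The peak that overlaps Csf2, from 54061481 to 54063555, had 10.6, 13.2 and 19.4 CPM in primary tumour lines, against 12.0, 7.53 and 10.7 CPM in naive organoids. The groups overlapped, with primary tumour replicate 1 below naive replicates 1 and 3. The log2 fold change was 0.55 (SE 0.43), with a 95% interval from -0.33 to 1.42, so that a difference of up to that upper bound remains possible. The peak began inside the gene, so that the lower, 3′ part of Csf2 lay outside it, and reached 355 bp past the upper, 5′ end. It was 2074 bp wide, at the 96.3rd percentile of widths, with an authors' score of 6.46 at the 10.5th percentile. Per kb of peak it averaged 6.95 CPM in the tumour lines and 4.86 CPM in the naive libraries, the 4.59th and 3.22nd percentiles of tested peaks. Per kb, the peak at Csf2 was thus among the weakest of the tested peaks in both groups.

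No peak of the table lay between 54063555 and the next peak, 76.1 kb further at 54139681. This stretch runs past the upper end of the domain and, by the gene order, holds Il3. No count is thus available for Il3. The table held 11 of the 24 peak numbers from 12361 to 12384, the first and the last of the domain, and the other 13 numbers had no row.

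On the lower side of the domain 3 tested peaks were close to level. The first, from 53886106 to 53887195, had 13.4, 12.7 and 21.8 CPM in primary tumour lines, against 22.3, 16.2 and 11.5 CPM in naive organoids (log2 fold change -0.03, 95% interval -0.83 to 0.76). The second, from 53893821 to 53894338, had 10.3, 12.7 and 17.1 CPM in primary tumour lines, against 15.4, 10.7 and 12.0 CPM in naive organoids (0.10, interval -0.74 to 0.93). The groups overlapped fully at both. The third, from 53913887 to 53915414, had the highest CPM per peak of the domain in naive organoids but not per kb, with 19.96, 37.0 and 28.9 CPM in the tumour lines, against 21.4, 30.5 and 36.7 CPM in the naive libraries (-0.09, interval -0.70 to 0.53). Each interval leaves room for a difference of about the size of its bounds.

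The fourth, from 53958097 to 53958584, lay 56.1 kb below the run and did not pass the filter on low counts. It held 10, 23 and 10 reads in primary tumour lines, against 0, 22 and 3 reads in naive organoids. The groups overlapped, since naive replicate 2 lay above primary tumour replicate 1 in CPM (4.04 and 2.85). No fold change is given for it.

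**Figure D2:**
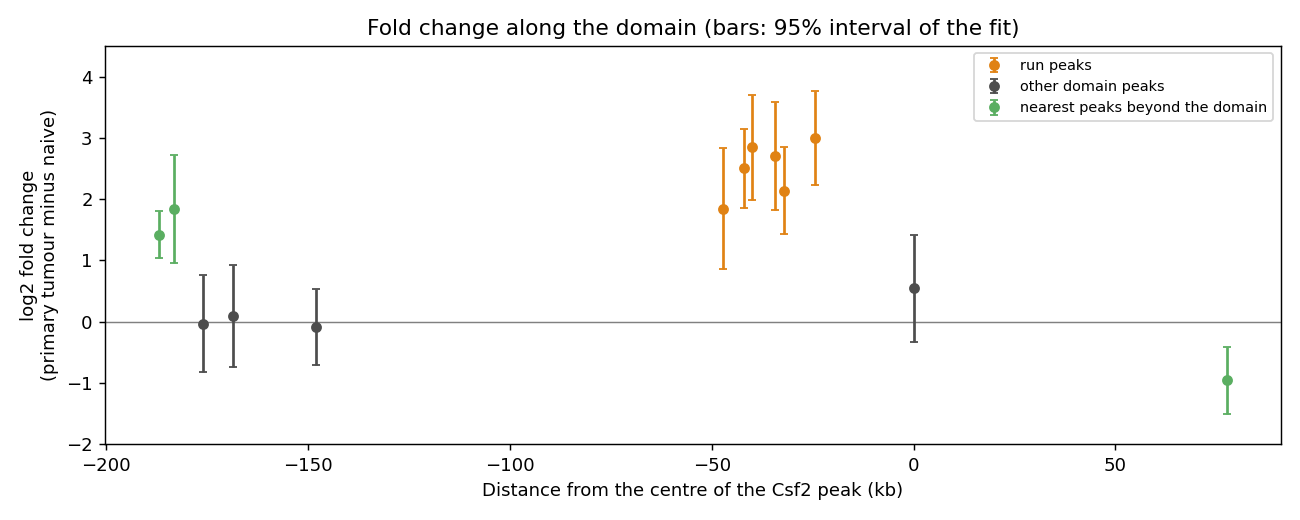
Log2 fold change, primary tumour minus naive, of the 10 tested domain peaks and of the 3 nearest peaks beyond the domain, against distance in kb from the centre of the Csf2 peak, with bars for the 95% interval of the fit. The run peaks stand between 1.85 and 3.003, and the other domain peaks between -0.09 and 0.55. The peaks beyond the domain, all called, stand at 1.42 and 1.83 below it and at -0.96 above it.

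The limits of the domain were set by coordinates, and peaks that differed lay just beyond them. Below the domain, the peak from 53879320 to 53879605 had 23.7, 25.4 and 14.2 CPM in primary tumour lines, against 5.15, 4.59 and 8.11 CPM in naive organoids. Its neighbour from 53873781 to 53877387 was much wider and held more reads, with 183, 243 and 195 CPM in primary tumour lines, against 74.6, 78.5 and 77.7 CPM in naive organoids. All 3 tumour lines were higher at both peaks. Both were called higher, with a log2 fold change of 1.83 (SE 0.43) at the first and 1.42 (SE 0.19) at its neighbour. Per kb of peak the narrow peak averaged 74.0 CPM in tumour lines and 20.9 CPM in naive libraries, and the wide one 57.4 CPM in tumour lines and 21.3 CPM in naive libraries. Above the domain, the peak from 54139681 to 54140632 went the other way, with 29.4, 20.1 and 30.8 CPM in primary tumour lines, against 66.9, 43.2 and 50.0 CPM in naive organoids. It was called lower, with a log2 fold change of -0.96 (SE 0.27). The level peaks on the lower side of the domain therefore lay between the run and another pair of peaks that were higher in the tumour lines.

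The share of the domain's reads that fell into the run needs no scaling between libraries. It was 78.3% (exact Clopper-Pearson 95% interval 75.5% to 80.9%), 72.5% (68.8% to 76.0%) and 68.8% (65.0% to 72.4%) in primary tumour replicates 1, 2 and 3. In naive replicates 1, 2 and 3 it was 42.8% (34.6% to 51.2%), 27.6% (23.8% to 31.7%) and 36.2% (30.4% to 42.3%). The intervals cover counting error only. The same counts chose the run, so the shares describe its size and test nothing. Relative to the Csf2 peak, the run held 19.5, 17.5 and 10.4 times as many reads in the tumour lines, against 4.43, 3.49 and 3.84 times in naive organoids.

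**Figure D3:**
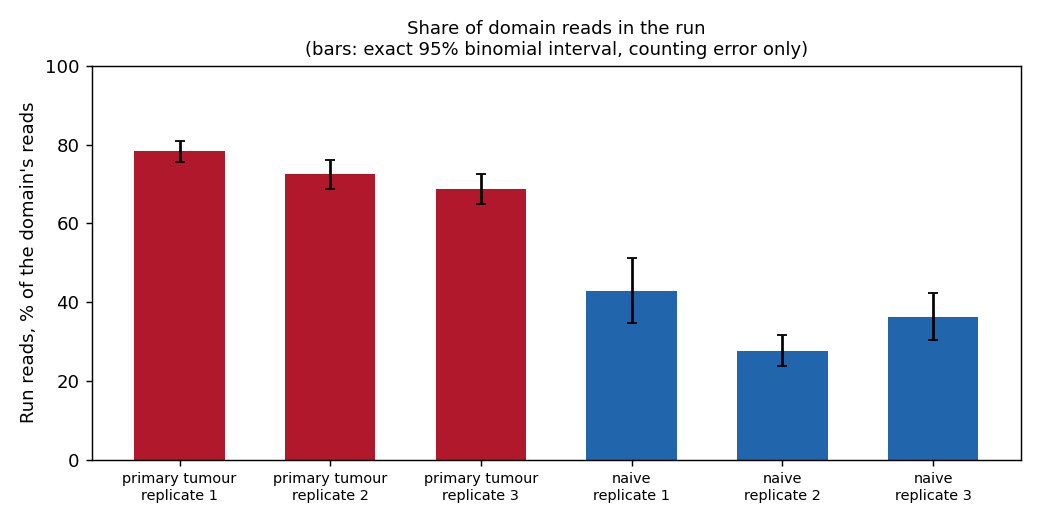
Share of the domain's reads that lie in the 6 run peaks, in percent, for each library, with exact 95% binomial intervals that cover counting error alone. The tumour lines stand between 68.8% and 78.3% and the naive libraries between 27.6% and 42.8%.

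Summed over its peaks, the run varied less between the tumour lines than the peaks outside it did. The run was chosen by its values in these libraries, so its spread is a description and no test. The coefficient of variation of the summed signal was 7.45% over the tumour lines in the run and 24.2% at the 5 peaks outside it. In naive organoids the order was opposite, with 33.6% in the run and 2.38% outside. The 7.45% and the 2.38% hold for sums only, in which opposite differences at single peaks cancel. At single run peaks the highest tumour line was 1.24 to 2.14 times the lowest. The run also held more reads in primary tumour replicates 1, 2 and 3, with 721, 438 and 428 against 200, 166 and 194 outside it. The part of read number in the spread was not tested. In naive replicates 1, 2 and 3 the first lower peak had 22.3, 16.2 and 11.5 CPM, and the third had 21.4, 30.5 and 36.7 CPM. Summed outside the run, the values were 57.0, 87.8 and 92.0 CPM in primary tumour lines, against 71.2, 68.9 and 72.2 CPM in naive organoids. The groups overlapped, with a ratio of means of 1.12.

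Naive replicate 2 was the lowest naive library at each of the 6 run peaks, and naive replicate 1 was the highest at 5 of them. These are also the deepest and the shallowest library, with 5987545 and 1185356 reads in peaks, and the part of depth in this order was not tested. Counts behind the naive values were low, at 62, 143 and 96 reads over the whole run, against 721, 438 and 428 in the tumour lines.

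No tumour line led the run throughout. Primary tumour replicate 1 was the highest line at run peaks 1 and 3, replicate 3 at run peak 2, and replicate 2 at run peaks 4, 5 and 6. The highest line was between 1.24 and 2.14 times the lowest at the 6 peaks. Within the run, reads were spread over all of its peaks in both groups. Run peak 2 held 22.6 ± 4.37% of the run's reads in primary tumour lines and 22.8 ± 5.52% in naive organoids (SD, n = 3 each). Run peak 6 held 20.8 ± 2.27% in primary tumour lines and 15.1 ± 2.96% in naive organoids, and run peak 5 held 19.1 ± 4.04% and 24.7 ± 1.04% in the same order. Run peak 1 was the smallest part in primary tumour lines, 8.20 ± 1.36%, against 13.002 ± 4.29% in naive organoids.

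**Figure D4:**
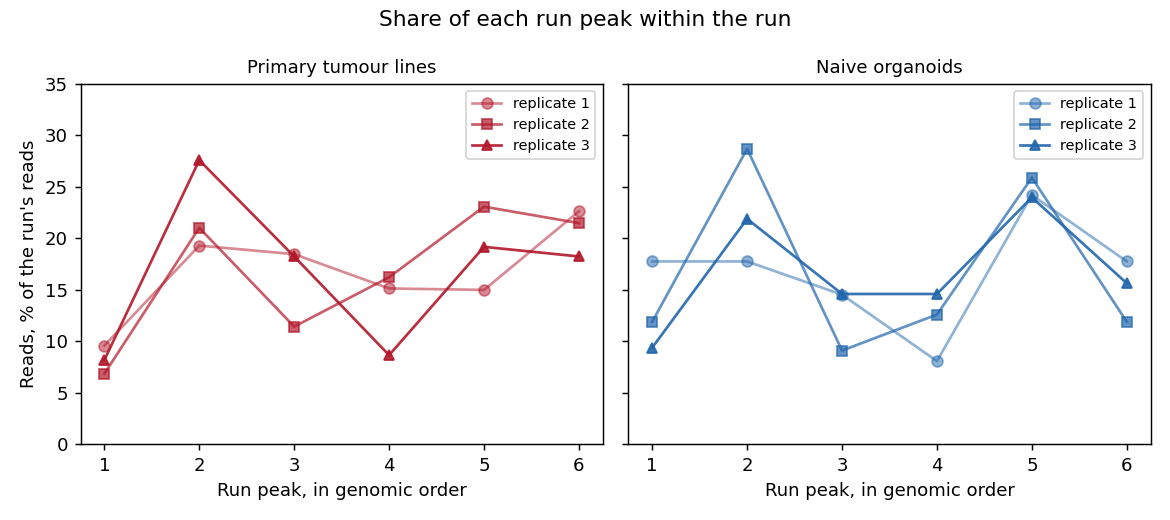
Share of each of the 6 run peaks in the run's reads, in percent, for primary tumour lines (left) and naive organoids (right), with a line for each library. Run peak 2 takes 19.3% to 27.6% in tumour lines and 17.7% to 28.7% in naive libraries.

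In naive organoids the run was weak but not empty. Per kb of peak, its peaks had 4.07 to 9.95 CPM, between the 1.81st and the 21.4th percentile of tested peaks in that group. In primary tumour lines they had 16.8 to 55.3 CPM per kb, between the 41.6th and the 89.7th percentile. The strongest of the run per kb in tumour lines were run peaks 2 and 6, with 55.3 and 46.1 CPM per kb.

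The run was chosen as a stretch of neighbouring called peaks and set by coordinates, so that closeness was part of its choice. Width and score were not named in it, but calls depend on read counts. Whether width and score are free of the choice was not tested. Its 6 peaks covered 6.77 kb of 23.9 kb, with gaps of 0.891 to 6.16 kb. Such density is uncommon in the table, where 480 of 42918 stretches of 6 consecutive peaks (1.12%) were as short or shorter. The next peak below was 56.1 kb away and the next above 22.9 kb. Median width was 999 bp in the run and 746 bp over all peaks, and the median authors' score was 37.5 and 21.8. What the score measures is unknown here.

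Outside the domain, 7.92% of the 2486 tested peaks of chromosome 11 were called higher and 4.10% lower, beside 8.0% and 6.40% over all tested peaks. Each library was set against the mean of the naive libraries, and the median log2 ratio over these peaks was 0.08 in replicate 1 of the tumour lines, 0.05 in replicate 2 and 0.02 in replicate 3, with naive libraries between -0.01 and 0.03. Over the 72 tested peaks within 1 Mb of the run the corresponding medians were 0.24, 0.12 and 0.16, with naive libraries between -0.003 and 0.03. The surroundings of the run were thus slightly higher in the tumour lines, by far less than the run itself.

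The peaks most like the run were sought among 27621 tested peaks outside the domain with a mean of at least 20 reads, by Pearson's r of log2(CPM + 1) over the 6 libraries. The closest was on chromosome 15 from 99414276 to 99416514 (r = 0.998), with 53.9, 64.0 and 54.1 CPM in the tumour lines, against 19.7, 10.3 and 14.1 CPM in the naive libraries. It shares with the run the high primary tumour replicate 2 and the low naive replicate 2. Next were a peak on chromosome 1 from 173286386 to 173287378 and a peak on chromosome 8 from 126278539 to 126279272. Their log2 fold changes were 1.89 (SE 0.37) and 2.36 (SE 0.35). Of the candidates, 611 (2.21%) reached an r of 0.95. The libraries fall into 2 groups and the run was chosen for its difference between them, so the likeness is a description.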

How the data were processed

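The table the authors deposited holds raw read counts, 1 column per library, for 1 peak set shared by all 6. Per the labels' protocols, each library started from 50000 cells, exposed to Tn5 for 30 min at 37 °C, and was sequenced in pairs of 2 reads of 75 bases. The submitters' processing notes name Bowtie, Picard, SAMtools, MACS2, bedtools and the build mm9, with no versions or roles. Row names also hold the authors' score of each peak. How duplicates were handled, and whether read ends were shifted for Tn5, is not stated in the labels. Duplicates left in would raise counts, and a Tn5 shift would matter little in peaks this wide.

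Counts were fitted over the whole table in R 4.3.3 with edgeR 4.0.16 (filterByExpr, TMM factors between 0.922 and 1.05, 2-sided robust quasi-likelihood F test on group alone), with Benjamini-Hochberg adjustment over 36179 tested peaks. SEs and intervals were derived from each fold change and its F.

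All 11 peaks of the domain are reported, and the peaks most like the run were the 3 with the highest r, leaving out chromosomes 18, X and Y. Domain, members and lists were chosen with earlier results of these data known. The alternatives changed the scaling (by totals, by DESeq2 size factors, by offsets that follow abundance with loess at span 0.3, by chromosome 11), the test (DESeq2 1.42.0, Wald), the filter (none, or 20 counts in 3 libraries), the design (a replicate block) and the libraries (each left out in turn). The gene and promoter tables used are of GRCm38.p6, so they gave names, order, strand and sequences, and no peak was assigned to a gene by them. Lists of pathway genes and cell type markers need an mm9 annotation and were not analysed here, so the labelled cell type was not checked.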

Additional observations from a re-analysis of the deposited data

How the results depend on the processing

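The 6 run peaks stayed higher in primary tumour lines in all 14 alternatives, and 5 of them kept their call in each, which describes values that chose the run and is no test of it. Run peak 1 lost its call without naive replicate 2 or 3 (log2 fold change 1.49 and 1.68), and its fold changes ran from 1.49 to 2.33. Leaving out 1 library gave 5 to 6 domain peaks called higher and 0 lower, and 2215 to 5440 called peaks in the whole table, against 5210. The lowest of these came without naive replicate 2, the deepest library. The cause was not tested. With a replicate block, 3539 peaks were called, all 6 run peaks among them, but the numbers were not taken to pair the libraries: the correlation of deviations within a number was -0.24, -0.11 and 0.01, and 0 of 6 libraries correlated best with its own number. The log2 ratio of summed CPM was 2.18 to 2.67 in the run over 10 alternatives (2.41 as reported) and 0.03 to 0.35 outside it over 9 (0.16 as reported). Abundance-trended offsets were not run for the sum outside the run, since 1 of its peaks was not tested. The Csf2 peak was not called in any alternative (log2 fold change 0.28 to 0.76). Tested lower flank peaks changed sign between alternatives, within -0.32 to 0.28, and were never called. In all, 11 of 11 domain peaks lay wholly inside it. The low naive counts limit the precision of the fold changes in the run.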
